A study of Mus musculus with 4 samples.

Results

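Runx2 occupancy was described at 9 genes of the Hedgehog pathway, namely Ihh, Shh, Ptch1, Smo, Gli1, Gli2, Gli3, Sufu and Hhip. These are 9 of the 22380 protein-coding genes of the GENCODE M1 annotation on mouse assembly mm9. The genes were chosen by their role in the pathway, and every Runx2 peak that overlapped the gene body or the 20 kb on either side of it was taken, whatever its height. This gave 26 of the 25457 peaks of day 0, 73 of the 60596 peaks of day 9 and 45 of the 40330 peaks of day 28. Merging peaks of different days that shared at least 1 bp gave 79 of the 67703 regions of the genome.

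The cells were MC3T3-E1 subclone 4, a single clonal line of preosteoblasts from mouse calvaria (strain C57BL/6), with no genetic alteration named. Chromatin was immunoprecipitated with an antibody to Runx2, the transcription factor required for osteoblast formation, from proliferating cells at day 0, from matrix-depositing cells at day 9 and from mineralizing cells at day 28 of culture. Differentiation was induced with ascorbic acid and beta-glycerophosphate, and day 9 input DNA without antibody served as the control for all 3 days. Each day had 2 libraries, whose reads the authors pooled before calling peaks, so each day is 1 list. No replicate error or p-value can be given for a difference between days, and the number of reads behind a peak is unknown because the lists hold no read counts. The study's supplement gives raw read totals, which were largest for day 0 and are not used here, so the lists also differ in depth. The lists hold no expression either, so the identity of the cells was not checked against marker genes.

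Hedgehog proteins are secreted signals. In cells without them the receptor Ptch1 holds the membrane protein Smo inactive, and Sufu, together with kinases at the primary cilium, keeps the Gli transcription factors in check. Binding of a Hedgehog protein to Ptch1 releases Smo, and the Gli factors then switch on their targets, among which are Gli1, Ptch1 and Hhip. In the growing skeleton Ihh is made by chondrocytes and is needed for osteoblasts to form in endochondral bone, where Hedgehog signalling acts before and together with Runx2.

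Each peak carries the score given by the peak caller MACS, which is 10 times the negative log10 of its p-value and was at least 100 in every list. Scores depend on depth, so a peak is placed here by its score percentile within its own list, with tied scores at the middle of their ranks. A score of 3100 is the value MACS writes when the p-value is too small to hold, and scores of 3100 or more were treated as a tie, which lies at percentile 99.6 at day 0, 97.6 at day 9 and 98.0 at day 28.

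The sequences at the highest day 9 peak in the windows of Ptch1, Ihh, Shh and Gli2 are given first. They show how these sites differ in holding the Runx core within 50 bp of the peak centre. Over its whole length each of these peaks held at least 1 core. The highest peaks of the Smo, Gli1 and Gli3 windows lay over transcript starts and that of the Sufu window over its neighbour Trim8, and their bases are not shown. Each run holds the peak centre and the 50 bp on either side of it, on the plus strand of mm9, and capitals mark the Runx core TGTGGT or its complement ACCACA. In the Ptch1 window, 3 peaks were tied at a score of 3100. Their centres lay in intron 18, in intron 15 and 2.5 kb upstream of a start, the last still within the gene body. The intron 18 peak stood on a tandem repeat that holds the core again and again, whereas the other two held no core near the centre.
Ptch1 intron 18, chr13:63622422-63622522: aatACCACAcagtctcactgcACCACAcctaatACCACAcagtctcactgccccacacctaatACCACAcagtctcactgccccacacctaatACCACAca
Ptch1 intron 15, chr13:63629749-63629849: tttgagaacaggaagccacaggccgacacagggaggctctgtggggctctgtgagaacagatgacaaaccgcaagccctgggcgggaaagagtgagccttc
Ptch1 upstream, chr13:63669321-63669421: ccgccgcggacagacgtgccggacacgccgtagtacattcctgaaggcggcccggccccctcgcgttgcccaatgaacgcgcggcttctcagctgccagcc
Ihh to Nhej1, chr1:75011998-75012098: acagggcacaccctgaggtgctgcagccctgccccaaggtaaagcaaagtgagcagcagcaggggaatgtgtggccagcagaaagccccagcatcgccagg
Shh downstream, chr5:28780572-28780672: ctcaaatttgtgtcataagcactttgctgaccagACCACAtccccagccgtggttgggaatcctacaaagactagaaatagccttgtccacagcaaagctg
Gli2 intron 1, chr1:120930790-120930890: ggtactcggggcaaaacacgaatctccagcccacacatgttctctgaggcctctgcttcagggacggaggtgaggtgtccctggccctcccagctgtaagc

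A further 3 peaks, chosen after their values were seen, are shown because they hold several copies of the core. The Sufu intron 3 peak stood on a TG-rich repeat, and the peaks in Gli2 intron 1 and Gli3 intron 2 each held 2 cores close to their centres.
Sufu intron 3, chr19:46516768-46516868: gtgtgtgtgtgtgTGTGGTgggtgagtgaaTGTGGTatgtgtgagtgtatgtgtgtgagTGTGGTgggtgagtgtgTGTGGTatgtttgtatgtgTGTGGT
Gli2 intron 1, chr1:120934369-120934469: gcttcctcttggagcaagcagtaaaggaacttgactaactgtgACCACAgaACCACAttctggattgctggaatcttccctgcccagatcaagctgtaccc
Gli3 intron 2, chr13:15590265-15590365: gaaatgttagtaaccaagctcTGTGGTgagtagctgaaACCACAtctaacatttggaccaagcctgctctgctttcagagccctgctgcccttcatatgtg

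Across the pathway the number of peaks went from 26 to 73 and then to 45. The rise from day 0 to day 9 was 2.81-fold, beside 2.38-fold for all peaks of the genome and 2.25-fold for the mean number of peaks in a window over all genes. From day 9 to day 28 the count fell to 0.616 of its value, beside 0.666 for all peaks and 0.671 for the mean window. The mean window of a protein-coding gene held 1.66 peaks at day 0, 3.74 peaks by day 9 and 2.51 by day 28. The course over time was thus close to that of the whole lists.

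At least 1 peak was found in the windows of 6 of the 9 genes at day 0, beside 65.0% of all genes. It was found at all 9 at day 9, beside 76.9%, and at 8 at day 28, beside 71.2%. None of the 9 lacked a peak on every day, as 21.2% of all genes did. The number of peaks was higher at day 9 than at day 0 in all 9 windows, as it was at 60.3% of all genes, and in no window was it higher at day 28 than at day 9, as it was at 6.57% of genes. Windows of long genes are larger and hold more peaks, so these shares were not matched for length.

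Limiting the lists to the same length nearly removed the higher count at day 9. When every list was limited to the number of peaks that day 0 has, keeping the highest scores, the 9 windows held 26, 27 and 27 peaks at days 0, 9 and 28. Ptch1 then still had more peaks at day 9, with 3, 7 and 6, and so did Gli2, with 0, 4 and 3, Ihh, with 1, 3 and 0, and Smo, with 2, 3 and 2. Shh and Hhip had none on any day. Under this limit the direction turned for Sufu, with 12, 6 and 9 peaks, for Gli3, with 5, 2 and 3, and for Gli1, with 3, 2 and 4. The limit keeps every day 0 peak but only the higher scores of the later lists, so the score cutoff differs between days. At a common p-value of 1e-20 the counts were 5, 9 and 10 for Sufu, 1, 3 and 4 for Gli1 and 4, 2 and 3 for Gli3. Of these genes only Gli3 then had fewer peaks at day 9 than at day 0, though scores also depend on depth.

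**Figure D1:**
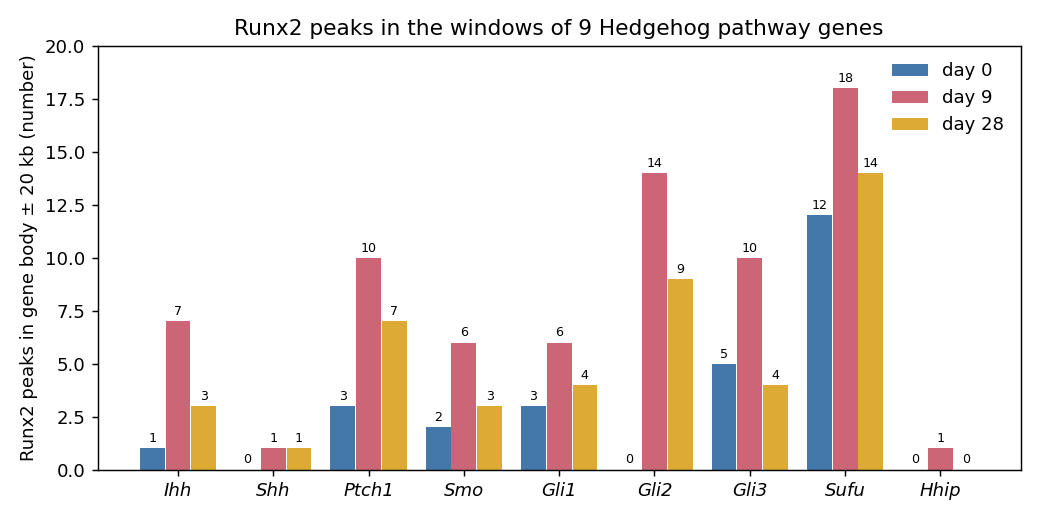
Number of Runx2 peaks (vertical axis) in the gene body and 20 kb on either side for each of the 9 Hedgehog pathway genes (horizontal axis), with 1 bar for each of days 0, 9 and 28 from 1 pooled list a day and the count printed above it. Day 9 was the highest day or shared the highest count at every gene, Sufu had the most peaks with 12, 18 and 14, and Gli2 went from 0 at day 0 to 14 at day 9.

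The ligand genes differed in their windows, but neither had a peak within 1 kb of its start. Indian hedgehog, Ihh (ENSMUSG00000006538, chr1:74991891-74998246, minus strand), is the ligand of endochondral bone. The 46.4 kb of its window held 1, 7 and 3 peaks at days 0, 9 and 28, but the nearest annotated start was that of Ihh for 0, 2 and 1 of these. Per 100 kb of window it lay at percentiles 58.8, 92.5 and 80.9 of all genes, and the 15.1 peaks per 100 kb at day 9 were the highest of the 9 windows. Within the gene, a peak in intron 1 was present at day 9 with a score of 362.39 (percentile 59.3) and at day 28 with 159.5 (percentile 23.1), and a peak over coding exon 3 was present at day 9 with a score of 222.59 (percentile 43.9). The highest peak of the window, at chr1:75011890-75012206, had a score of 763.63 (percentile 75.9) and was seen at day 9 alone. It lay between Ihh and Nhej1 and was nearer to an annotated start of Nhej1, a DNA end-joining gene. The single region of the window with a peak on all 3 days had scores of 135.36, 115.59 and 134.78. Its peaks were centred in intron 2 of the main Nhej1 transcript, 104 to 137 bp from an annotated Nhej1 start.

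Sonic hedgehog, Shh (ENSMUSG00000002633, chr5:28783355-28793641, minus strand), patterns the limb and neural tube. Its window held 0 peaks at day 0 and 1 peak at each later day, at the same place 2.53 kb beyond the end of the gene. The score was 300.49 at day 9 (percentile 53.9) and 122.27 at day 28 (percentile 10.7). At day 0 the nearest peak outside the gene was 139 kb away. The day 28 peak was therefore low in its list, and neither peak was kept when the lists were limited to the same length.

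Ptch1, the Hedgehog receptor and itself a Hedgehog target (ENSMUSG00000021466, chr13:63610261-63674474, minus strand), carried 3 of the 5 day 9 peaks with a score of 3100 or more in the windows. Its window of 104 kb contained 3, 10 and 7 peaks at days 0, 9 and 28, and for all of them the nearest annotated start was a Ptch1 start. Its peaks also stood high in their lists, with median percentiles of 61.5, 81.2 and 73.8 in the 3 lists. By peaks per 100 kb of window, Ptch1 lay at percentiles 68.7, 81.6 and 82.0 of all genes.

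The region 2.5 kb upstream of the nearest annotated Ptch1 start was occupied throughout. It lay within the annotated gene body but outside the main transcript. Its score was 1652.96 at day 0 (percentile 96.4) and 3100 at both day 9 and day 28. The promoter region, at chr13:63665043-63667869, joined overlapping peaks with different centres. Its day 0 peak of 362.25 (percentile 61.5) was centred in intron 1, 975 bp downstream of the main transcript start, which it did not reach. That peak did cover another annotated Ptch1 start, 219 bp from its centre. The highest day 9 peak, of 2420.22 (percentile 93.0), was centred 66 bp upstream of the main start. The day 28 peak of 2361.31 (percentile 93.2) spanned the main start. The region stood nearer the top of the list on both later days, but the peaks compared do not share a position. The third region of all 3 days, at the beginning of intron 2, lay at percentiles 12.8, 65.0 and 57.2. Percentiles come from lists of different lengths, and the median over all regions of the genome with peaks on all 3 days went from 59.8 to 79.5 and then to 73.2. Besides these, a second day 9 peak of the promoter region, in intron 1 (score 226.73), lay near a start and within the span of the day 0 peak. A day 9 peak about 1 kb upstream of the farthest annotated start (score 155.76) also lay near a start.

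Inside the main transcript, 4 introns were occupied at days 9 and 28 without a day 0 peak at the same place. The intron 15 peak had a score of 3100 at day 9 and of 2684.73 at day 28 (percentile 94.6). The intron 2 peak at chr13:63653745-63654310 fell from 1785.56 (percentile 89.4) to 823.48 (percentile 73.8), and the intron 17 peak was at 663.1 (percentile 73.1) and 718.66 (percentile 70.7). The intron 18 peak on the tandem repeat, chr13:63622086-63622858, behaved otherwise, with a score of 3100 at day 9 (percentile 97.6) and of 183.59 at day 28 (percentile 29.3). It dropped by 68.3 percentile points, the largest fall from day 9 to day 28 among the 40 regions with peaks on both days. Of the 2699 day 9 peaks with a score of exactly 3100, 2695 had a day 28 peak, at a median percentile of 98.0, and this was 1 of 3 whose day 28 peak lay below percentile 30.

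Smo, the membrane protein that Ptch1 restrains (ENSMUSG00000001761, chr6:29685694-29711365, plus strand), was bound at its start on every day. Its window contained 2, 6 and 3 peaks at days 0, 9 and 28, of which 1, 2 and 1 were nearest to a Smo start. The start peak had a score of 682.32 at day 0 (percentile 82.6), of 2639.65 at day 9 (percentile 93.8) and of 2426.64 at day 28 (percentile 93.5). A second peak, in intron 1, was seen at day 9 alone with a score of 857.67 (percentile 77.9), and 2 weaker day 9 peaks of 121.1 and 157.45 lay in introns 5 and 9. The other region of all 3 days in the window was at the start of the neighbour Ahcyl2, with scores of 601.59, 1980.59 and 1412.16.

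Hhip, a membrane-bound protein that binds and sequesters Hedgehog ligands (ENSMUSG00000064325, chr8:82490014-82581905, minus strand), was the least occupied of the 9. The sole peak in its window of 132 kb lay in intron 4 at day 9, with a score of 234.4 (percentile 45.8). Beyond the gene body the nearest peak was 254 kb away at days 0 and 28 and 45.2 kb away at day 9. Hhip and Ptch1 are both Hedgehog targets, and their windows differed in number, with 1 peak at Hhip and 20 at Ptch1 over the 3 lists.

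The 3 Gli genes differed in when and where they were occupied. Gli1, an activator that is itself switched on by the pathway (ENSMUSG00000025407, chr10:126766945-126778645, minus strand), had 3, 6 and 4 peaks in its window at days 0, 9 and 28, of which 2, 3 and 2 were nearest to a Gli1 start. Just upstream of the start, with the centre 695 bp away at day 9, the score was 117.31 at day 0 (percentile 8.74), 302.53 at day 9 (percentile 54.1) and 344.4 at day 28 (percentile 51.1). A peak in intron 2 was also present on all 3 days, with scores of 171.09, 156.43 and 314.55, and a second intron 2 peak of 136.1 was seen at day 9. The peaks in Gli1 and just upstream of it thus lay at percentile 54.1 or lower on every day. The highest peak of the window, with 1730.01 at day 9, lay at the start of Mars, the methionyl-tRNA synthetase gene, and a peak in Inhbe, an inhibin subunit gene, had a score of 491.49 at day 9.

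Gli2, the main activator of Hedgehog targets (ENSMUSG00000048402, chr1:120730709-120950196, minus strand), had 0, 14 and 9 peaks at days 0, 9 and 28 in its window of 259 kb, in which no other protein-coding gene lies. Only Gli2 and Shh of the 9 had no day 0 peak but peaks on both later days, as 7.39% of all genes did. All 14 day 9 peaks lay within the gene, with 3 in intron 1, 9 in intron 2 and 2 in coding exon 14. They merged with those of day 28 into 15 regions, of which 7 were shared by days 9 and 28, 6 were seen at day 9 alone and 2 at day 28 alone. By number of peaks Gli2 lay at percentile 96.8 of all genes at day 9, but per 100 kb of window at percentile 63.9, since the gene is 219 kb long.

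No Gli2 peak lay at the start of its main transcript. The highest was in intron 1 about 19 kb downstream, with a score of 963.78 at day 9 (percentile 79.9) and of 847.66 at day 28 (percentile 74.4). The neighbouring intron 1 peak with 2 cores had 561.14 at day 9 (percentile 69.7) and 142.26 at day 28 (percentile 18.1), a fall of 51.7 percentile points, and another, weaker one in the same intron, also with 2 cores, had 150.55 and 142.26. A start annotated within intron 2 was flanked by a region with 390.45 at day 9 (percentile 61.3) and 470.0 at day 28 (percentile 59.9), and a further day 9 peak of 125.88 lay at this start itself. The median percentile of the Gli2 peaks was 31.3 at day 9 and 21.6 at day 28, so most of them were low in their lists.

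Gli3, which acts chiefly as a repressor after it is cut (ENSMUSG00000021318, chr13:15555068-15821859, plus strand), had 5, 10 and 4 peaks in its window at days 0, 9 and 28. At its start the score was 344.68 at day 0 (percentile 59.6), 3205.91 at day 9 (percentile 97.6) and 2775.5 at day 28 (percentile 94.9), so the Gli3 start, like those of Ptch1 and Smo, stood near the top of the day 9 and day 28 lists. The intron 2 region with 2 cores, at chr13:15589935-15590684, took the opposite course, with 1376.5 at day 0 (percentile 94.9), 1010.19 at day 9 (percentile 80.7) and 870.66 at day 28 (percentile 75.0). A peak in intron 4 was present at day 0 with 645.72 (percentile 81.2) and at day 28 with 239.09 (percentile 39.1) but was not called at day 9. The other day 9 peaks were weak, and the median percentile of all 10 was 18.2. Per 100 kb of window Gli3 lay at percentiles 49.0, 48.4 and 35.4 of all genes on the 3 days.

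Sufu, which binds the Gli proteins and holds them in the cytoplasm (ENSMUSG00000025231, chr19:46471386-46563294, plus strand), was the most densely occupied of the 9 at day 0. Its window of 132 kb contained 12, 18 and 14 peaks at days 0, 9 and 28, and 9, 13 and 11 of these were nearest to a Sufu start. Per 100 kb of window it lay at percentiles 96.1, 90.3 and 93.3 of all genes on these days. Of its 21 regions 9 held a peak on all 3 days, which is 9 of the 20 such regions of the pathway.

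The Sufu start had a score of 497.17 at day 0 (percentile 73.1), of 1020.48 at day 9 (percentile 80.9) and of 876.69 at day 28 (percentile 75.1). A region upstream, with its edge within 1 kb of this start and its centre nearest to the divergent neighbour Actr1a, an actin-related gene, had 419.82, 358.54 and 633.13. A start annotated near the end of the gene had weak peaks of 114.52, 104.19 and 130.07, and another of 108.04 at day 28. The intron 3 region on the TG-rich repeat, chr19:46516234-46517403, had 156.06 at day 0 (percentile 24.1), 1881.55 at day 9 (percentile 90.1) and 216.51 at day 28 (percentile 35.5). The day 9 percentile was thus above those of both other days, by more than the medians of all regions of all 3 days, which were 59.8, 79.5 and 73.2. The highest peaks of the window, 3159.98 at day 0 and 3100 on both later days, lay 4 to 5 kb wide over the start of the neighbour Trim8, a ubiquitin ligase gene, and the median percentile of all peaks of the window was 35.5, 44.8 and 37.7.

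**Figure D2:**
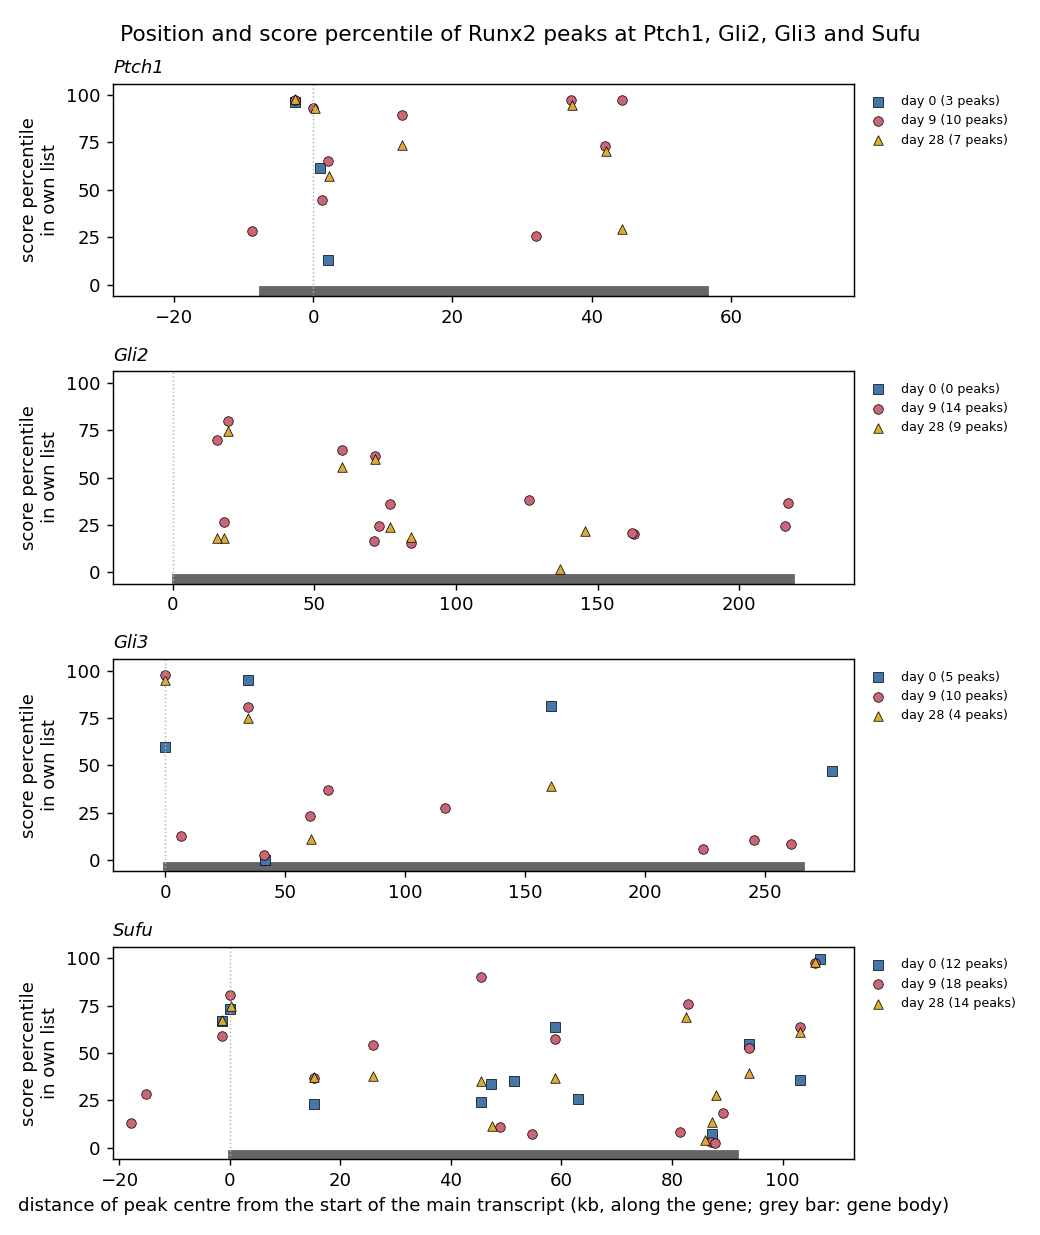
Each point is 1 Runx2 peak in the window of Ptch1, Gli2, Gli3 or Sufu, placed by the distance of its centre from the start of the main transcript (horizontal axis, kb along the gene) and by its score percentile within its own list (vertical axis), with squares for day 0, circles for day 9 and triangles for day 28, and a grey bar for the gene body. Ptch1 had peaks near the top of the axis both at the start and inside the gene, Gli2 had none at day 0, and Gli3 had its strongest peak at the start at days 9 and 28 but in intron 2 at day 0.

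Taking the 9 genes by their starts, a peak of which any part lay within 1 kb of an annotated start was found at 5 genes at day 0 (Ptch1, Smo, Gli1, Gli3 and Sufu), beside 44.2% of all genes. It was found at the same 5 and Gli2, 6 in all, at day 9, beside 54.1%, and at these 6 at day 28, beside 51.7%. Ihh, Shh and Hhip had none on any day. Most of the peaks were nevertheless away from the starts, with 8 of 26, 12 of 73 and 10 of 45 peaks within 1 kb. By the centre of the peak, 17, 54 and 33 peaks lay in the body of 1 of the 9 genes at days 0, 9 and 28, and of these 14, 43 and 29 lay in introns. The nearest start belonged to another gene for 7, 17 and 9 peaks.

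By the days on which a peak was called, 20 of the 79 regions (25.3%, exact binomial 95% interval 16.2% to 36.4%) held one on all 3 days, beside 27.4% of all regions. A further 20 (25.3%, 16.2% to 36.4%) were shared by days 9 and 28, beside 21.1%, and 30 (38.0%, 27.3% to 49.6%) were seen at day 9 alone, beside 34.5%. Day 28 alone had 3 regions (3.80%, 0.790% to 10.7%), beside 7.59%, and day 0 alone had 4 (5.06%, 1.40% to 12.5%), beside 5.60%. For these 5 kinds the interval included the share of all regions. No region was shared by days 0 and 9 alone (0%, up to 4.56%), beside 1.69%, and 2 were shared by days 0 and 28 alone. The intervals cover counting error only, and regions of 1 gene are not independent of each other.

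**Figure D3:**
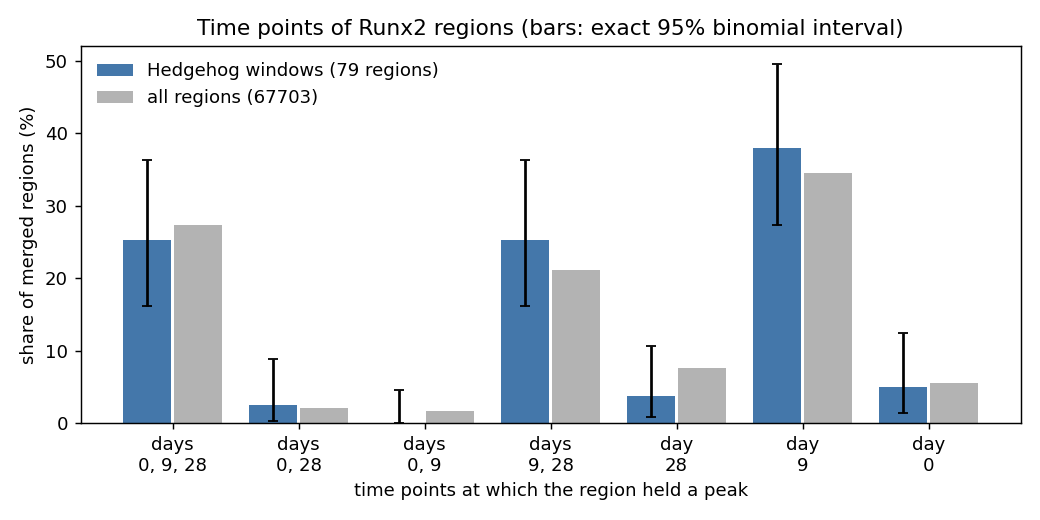
Share of merged Runx2 regions (vertical axis, percent) by the days on which they held a peak (horizontal axis), for the 79 regions of the Hedgehog windows (blue, with exact binomial 95% intervals) and for all 67703 regions of the genome (grey). The grey bar lay within the interval of the blue bar for every kind of region, with 25.3% and 27.4% for regions of all 3 days.

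In median the regions of all 3 days stood higher in the lists than the others, which was not tested. Their median percentiles were 60.5, 72.8 and 64.5 at days 0, 9 and 28, beside 59.8, 79.5 and 73.2 for all such regions of the genome. Regions shared by days 9 and 28 had medians of 61.2 at day 9 and 31.6 at day 28, beside 58.6 and 38.5, and regions of day 9 alone had 24.3, beside 26.6.

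**Figure D4:**
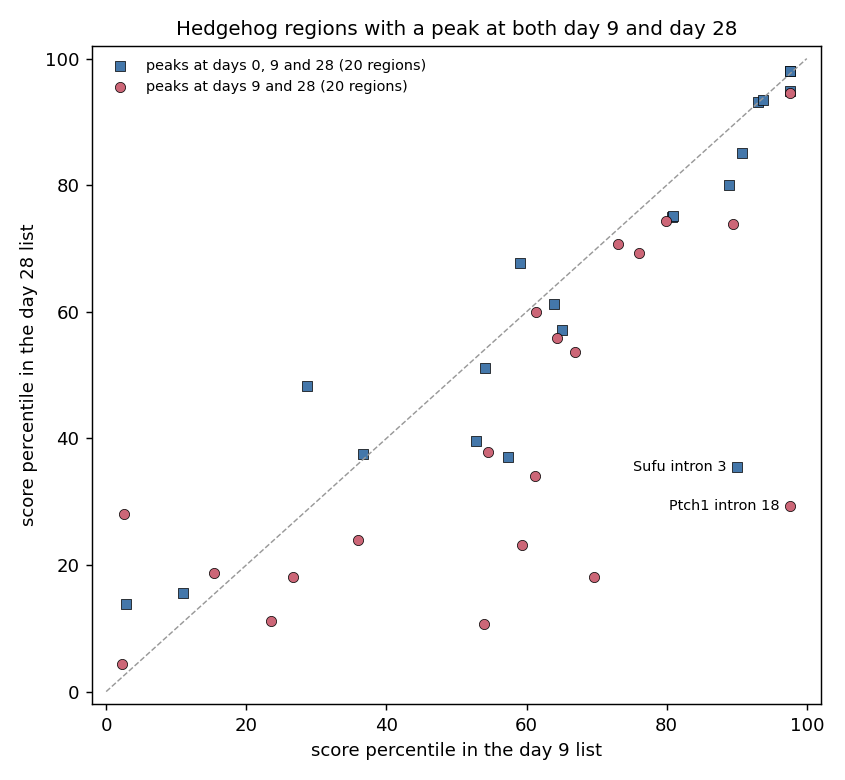
Each point is 1 of the 40 Hedgehog regions with a peak at both day 9 and day 28, placed by its score percentile in the day 9 list (horizontal axis) and in the day 28 list (vertical axis); squares also held a day 0 peak, circles did not, and the dashed line marks equal percentiles. Most points lay near or below the line, and those of Ptch1 intron 18 (97.6 and 29.3) and Sufu intron 3 (90.1 and 35.5), both on repeats of the Runx core, lay farthest below it.

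On either strand and no more than 50 bp from the peak centre, the Runx core TGTGGT was found in 6 of the 26 day 0 peaks (23.1%, exact binomial 95% interval 8.97% to 43.6%), in 19 of the 73 day 9 peaks (26.0%, 16.5% to 37.6%) and in 10 of the 45 day 28 peaks (22.2%, 11.2% to 37.1%). Over all peaks the shares were 16.0%, 25.3% and 20.9%, and in windows of the same length 500 bp away from the centres they were between 6.82% and 7.20%. On each day the interval for the Hedgehog windows included the share of all peaks. At day 9 the core was found in 10 of 22 peaks shared with day 28 alone (45.5%, beside 27.5% for all such peaks), in 4 of 21 peaks of regions of all 3 days (beside 15.8%) and in 5 of 30 peaks of day 9 alone (16.7%, beside 32.3%). Within 1 kb of the starts it was found in 2 of 12 day 9 peaks, and elsewhere in 17 of 61. None of the 13 peaks of the Gli1 window and not the 1 peak of the Hhip window held it near the centre. These are few peaks, and most peaks of every list held none there either.

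Because Ptch1 and Gli1 are themselves targets of Gli proteins, the Gli core TGGGTGGTC was searched on both strands over the whole length of each peak. It was found in 0 of 26 day 0 peaks, in 3 of 73 day 9 peaks (4.11%, exact binomial 95% interval 0.856% to 11.5%) and in 3 of 45 day 28 peaks (6.67%, 1.40% to 18.3%), beside 0.951%, 0.720% and 0.870% of all peaks. The 6 peaks hold the same 3 sites on both days, and a match does not show binding by a Gli protein. The site at Ptch1 lay 919 bp upstream of a start, within the promoter region described above, and capitals mark the Gli core.
Ptch1 promoter, chr13:63667733-63667761: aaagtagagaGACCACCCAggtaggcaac
Gli2 intron 2, chr1:120866110-120866138: ggcctgcccaGACCACCCAgtctccagca
Smo window, chr6:29669063-29669091: ctctaccacaTGGGTGGTCcccaccatgt

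The Gli2 site lay in a weak intron 2 peak with a score of 124.23 at day 9 and 144.38 at day 28. The third site lay upstream of Smo, nearest to the start of Tspan33, in a peak of 103.11 at day 9 and 108.03 at day 28, which were among the lowest scores of the lists. The Ptch1 site thus was the only 1 of the 3 in a strong peak. On both days it lay near the outer edge of a wide peak, of 1865 bp at day 9 and 2796 bp at day 28.

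A wider list of 28 genes of the pathway was counted in the same way. At least 1 peak was found in 22, 27 and 27 of the windows at days 0, 9 and 28, beside 65.0%, 76.9% and 71.2% of all genes, with 57, 143 and 111 peaks and a median of 2.00, 4.00 and 3.00 a window, beside medians of 1, 2 and 2 over all genes. The count was higher at day 9 than at day 0 for 20 genes, beside 60.3% of all genes, equal for 6 and lower for 2. None of the 28 lacked a peak on every day. These counts and shares were not matched for window length, and larger windows hold more peaks. Per 100 kb of window at day 9, the 28 genes lay between percentiles 11.5 and 97.6 of all genes.

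Among the 10 genes for the release and reception of the ligand, 7, 9 and 9 held a peak on the 3 days, with 20, 61 and 46 peaks. The most were at Hhat, which attaches palmitate to Hedgehog proteins, with 4, 18 and 10 peaks, and at Scube3, a secreted protein of a family that helps release them, with 3, 14 and 12. Scube3 lay at percentile 96.2 of all genes at day 9 per 100 kb of window, whereas Hhat lay at 66.8. Among the 13 genes of the cilium and of Gli processing, 11, 13 and 13 held a peak, with 21, 53 and 43 peaks. Of the 5 genes known as Hedgehog targets, 4, 5 and 5 held a peak, with 16, 29 and 22 peaks, and Ccnd1, the cyclin D1 gene, had the most with 5, 11 and 8 and lay at percentile 97.6 at day 9. A peak within 1 kb of a start was found at 16 of the 28 genes at day 0, beside 44.2% of all genes, at 20 at day 9, beside 54.1%, and at 21 at day 28, beside 51.7%.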

How the data were processed

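Runx2 ChIP-Seq was performed on MC3T3-E1 cells at 3 time points. The authors made base calls with CASAVA 1.6 and aligned reads with Bowtie 0.12.8 to mm9. They pooled reads of both libraries per time point (2 each) and called peaks with MACS 1.4.1 against pooled day 9 input DNA, retaining peaks that passed a p-value of 1e-10. The deposited peak lists hold the start, end and score of each peak, the score being the negative log10 of its p-value, multiplied by 10. The lists give neither read depth nor the spread between libraries, and the single input was used for all days. The input libraries and signal tracks were not analysed here.

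Starts were shifted to count from 1. All peaks lay within the chromosomes of NCBIM37, the same assembly as mm9. Windows, exons, introns and starts were taken from GENCODE M1. A peak belonged to a window if it shared at least 1 bp with it. Peaks of different days sharing at least 1 bp were merged. Locations and distances refer to the peak centre, used in place of the summit, except that a peak counts as within 1 kb of a start if any part of it is. Percentiles use mid-ranks. Shares carry exact binomial (Clopper-Pearson) 95% intervals. No test was made between time points.

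The members and the list of 29 further pathway genes were chosen with earlier results of these data known, and 28 of the 29 matched the annotation by symbol. The text gives for each member the highest day 9 peak, the peaks within 1 kb of its starts and at most 5 more by day 9 score and then day, and names a neighbour that owns the nearest start. The sequence of 1 peak is not reported here. Of the further genes the 3 with most day 9 peaks are named. Alternatives covered the p-value threshold, equal numbers of peaks per list, the window, overlap, transcripts and motif, and, chosen after seeing the data, counting of peaks nearest to a member start alone. Scripts ran in Python 3.11.15 with SciPy 1.17.1 and NumPy 2.4.6, and figures were drawn with Matplotlib 3.10.9. On simulated data 100% of 300 merged regions, 200 overlap queries and 200 planted motifs were recovered.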

Additional observations from a re-analysis of the deposited data

How the results depend on the processing

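Counts moved with the strictness of the lists. Requiring a p-value of 1e-20 left 14, 35 and 29 peaks at days 0, 9 and 28, in 38 regions, and 1e-50 left 6, 19 and 15 in 21 regions, with 1 gene bound within 1 kb of a start at day 0. With equal numbers of top-scoring peaks per list there were 27 peaks at day 9, 27 at day 28 and 41 regions. Gene bodies alone held 17 peaks at day 0, and windows of 50 kb held 40. The share of day 9 peaks with TGTGGT was 38.4% within 100 bp of the centre and 54.8% over whole peaks. Counting only peaks nearest to a member start, a choice made after seeing the data, left 19, 56 and 36 peaks. The day 9 count exceeded day 0 under 9 of 9 settings, though with equal lists only by 27 to 26. It exceeded day 28 under 8 of 9, being level with it with equal lists. Taken gene by gene, all 9 genes had more peaks at day 9 than at day 0 under only 5 of the 9 settings. No gene had fewer at day 9 under 7 of the 9. Shh, Gli2 and Hhip had no day 0 peak under all 9, but only the windows of 50 kb could have added one. The cause of these shifts was not tested, apart from fewer peaks entering. Of 243 counts for single genes, 168 stayed within 1.5 times the reported value and 75 did not. The 168 include every setting for Shh, Gli2 and Hhip at day 0 and for Hhip at day 28, where no peak was counted at all. No paired analysis was possible because each time point has 1 pooled list.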

Other observations

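The repeats of the Runx core under the Ptch1 intron 18 and Sufu intron 3 peaks were examined further after their values had been seen. The Ptch1 peak held 21 matches to TGTGGT over 485 bp, with 12 bp and 18 bp tied as the commonest gaps between neighbours. Over 2 steps the commonest gap was 30 bp. The Sufu peak held 28 matches over 925 bp. Both had 5 matches within 50 bp of the centre. Over the whole day 9 list, 501 peaks (0.827%) had 5 or more matches there. Of these 142 (28.3%) overlapped a day 28 peak, beside 49.2% of peaks with 1 to 4 matches and 63.3% of peaks without a match. A day 0 peak was overlapped by 3.39% of the first, 24.7% of the second and 41.1% of the third kind. Among peaks that overlapped a day 28 peak, the median percentile of the first kind was 89.6 at day 9 and 36.2 at day 28. It was 64.0 and 48.6 for the second kind and 69.8 and 63.5 for the third. The median change was -49.0 percentile points, beside -10.9 and -4.52. A peak below percentile 50 at day 9 cannot fall by 50 points, so the kinds differed in their room to fall. A fall of 50 points or more was seen in 69 of the 142 (48.6%), beside 5.73% and 2.37%. These differences were not tested.

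Lmbr1 (chr5:29556354-29704930) lies 763 kb from the Shh start and holds in intron 5 the known limb enhancer of Shh. It had 1 peak at day 0, 2 at day 9 and 1 at day 28, and 0 of them lay in intron 5. The peak of day 9 alone, in intron 4, had a score of 229.6 (percentile 45.1), and the others lay at the Lmbr1 start.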
